A study of Mus musculus with 6 samples.

Results

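The core circadian clock of the mouse was read here from 10 genes chosen by symbol: the activators Arntl, Clock and Npas2, the cryptochromes Cry1 and Cry2, the period genes Per1, Per2 and Per3, and the nuclear receptors Nr1d1 and Nr1d2. All 10 were measured, among 12393 genes with a probe set of their own, through 16 of the 20380 probe sets that the platform annotation gives to 1 gene. In 3 mice the liver had received an adenovirus to overexpress TFEB, a transcription factor of lysosomal and autophagy genes, and these were compared with 3 not-injected mice, all of C57 strain and wild type. All mice were 1 month old, and each liver was hybridised to 1 Affymetrix array. The labels name no liver given an empty vector, so injection, vector and TFEB cannot be told apart. They name neither the promoter of the transgene, nor the hour at which the livers were taken, nor the feeding state. The arrays were labelled as biological replicates.

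The clock of each cell is a delayed feedback loop. The ARNTL protein, also called BMAL1, pairs with CLOCK or NPAS2 and binds E-box sequences, which turns on the Per, Cry and Nr1d genes. PER and CRY proteins then hold this pair back, and the receptors REV-ERB alpha and beta, encoded by Nr1d1 and Nr1d2, repress Arntl, Npas2, Cry1 and other genes through a sequence called the RORE, where the ROR receptors activate. PAR bZIP proteins such as DBP act on a further sequence, the D-box, and NFIL3 opposes them there. In mouse liver the transcripts peak in a fixed order. Npas2, Arntl and Clock peak around the end of the night, Nr1d1 and Nr1d2 during the day, the Per genes and Cry2 around dusk, and Cry1 late in the night. Clock genes are expressed in nearly all cell types of the liver.

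The promoter windows shown are those of the members in which one of these sequences was found. RefSeq windows on GRCm38.p6, running from 250 bases before to 50 bases after a gene start, were found for 9 of the 10 genes, 13 windows in all. Per2 had none. Capitals mark a match on either strand to the E-box CACGTG, the RORE core TAGGTCA or the D-box TTATGNAA. The windows of Cry1, Per1 and Per3 are given for the 250 bases before the start, and that of Arntl for the 27 bases around its match, which lies 30 bases after 1 of its annotated starts.
Arntl, chr7:113207531-113207557, plus strand: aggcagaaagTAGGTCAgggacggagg
Cry1, chr10:85185055-85185304, minus strand: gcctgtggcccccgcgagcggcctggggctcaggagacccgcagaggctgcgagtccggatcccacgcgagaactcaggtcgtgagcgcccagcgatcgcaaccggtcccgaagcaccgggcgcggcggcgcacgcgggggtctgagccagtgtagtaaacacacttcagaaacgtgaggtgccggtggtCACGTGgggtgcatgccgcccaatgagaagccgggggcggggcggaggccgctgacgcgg
Per1, chr11:69098699-69098948, plus strand: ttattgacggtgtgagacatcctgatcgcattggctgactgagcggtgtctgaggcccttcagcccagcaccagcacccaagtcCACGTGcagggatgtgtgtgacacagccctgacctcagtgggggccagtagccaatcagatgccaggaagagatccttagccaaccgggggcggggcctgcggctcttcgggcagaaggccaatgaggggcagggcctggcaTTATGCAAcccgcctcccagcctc
Per3, chr4:151044666-151044915, minus strand: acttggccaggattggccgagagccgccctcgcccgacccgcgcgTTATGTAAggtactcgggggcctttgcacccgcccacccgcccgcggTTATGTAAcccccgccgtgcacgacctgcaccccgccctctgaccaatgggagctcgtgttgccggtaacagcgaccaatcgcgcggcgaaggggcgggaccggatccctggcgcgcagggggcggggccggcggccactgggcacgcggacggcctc
The E-box was found in the window of Cry1 and in 1 window of Per1, and in 7.15% of all 32851 windows of this length. The D-box was found once in that same window of Per1 and at 2 places in that of Per3, against 3.38% of all windows. The RORE core was found in 1 window of Arntl, against 2.61%. The other windows of Per1 and Arntl had no match, and these shares are per window, not per gene. The TFEB-binding CLEAR element, searched as TCACGTGA, which contains the E-box, was not among the letters of these 13 windows. It occurs in 0.974% of all windows. Clock, Npas2, Cry2, Nr1d1 and Nr1d2 had no match in their windows.

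The arrays of a group were close to each other, with correlations across probe sets of 0.992 to 0.997 among TFEB-injected livers, 0.997 to 0.998 among livers that were not injected, and 0.974 to 0.988 across the groups (probe sets on an array do not count as replicates). Injected replicate 2 lay farthest from its group, with a median absolute deviation of 0.115 from the mean of the other 2. The remaining arrays had 0.0766 to 0.0951. Results without injected replicate 2 are named for Cry1, Dbp, Elovl3, Tef and the count of called genes. Other differences also moved without it and are not each given. All values are log2 expression values as deposited, and every difference is the mean of TFEB-injected livers minus the mean of not-injected livers. Spike-in RNAs read lower on the injected arrays, with a median difference of -0.44 over 24 poly-A probe sets and -0.32 over 18 hybridisation probe sets. The 3 TrpnX control probe sets, which differed by -0.18 to -0.02, were left out of the poly-A set after the values were seen. Their part in the differences below was not tested. When the arrays were scaled to the poly-A spike-ins, the median of all genes moved to 0.39, against -0.05 as deposited. Of 6 hepatocyte markers, Apob was higher in injected livers (0.29) and Pck1 lower (-1.14), while Alb, Ttr, Apoa1 and Cps1 did not pass (-0.22 to 0.02). Of 31 markers of 7 other cell groups (Kupffer, endothelial, stellate, bile duct, lymphoid, neutrophil and erythroid cells), 7 were higher in injected livers and 2 lower, where 28.1% of all genes were called in either direction, and 3 read below the lower quartile on every array. The mean of the 5 endothelial markers was 8.45 to 8.60 in injected and 7.73 to 7.81 in not-injected livers. Their sizes were unlike, with Lyve1 (2.10), Stab2 (0.96) and Pecam1 (0.41, at a low level) higher, and Kdr (0.22) and Tek (0.007) not passing. For the 6 Kupffer cell markers the mean was 9.28 to 9.40 in injected and 8.84 to 9.24 in not-injected livers. The Kupffer cell markers went different ways, with Cd68 (1.74) and Lyz2 (0.93) higher, Marco (-0.80) lower, and Clec4f (-0.11), Adgre1 (0.09) and Csf1r (0.17) not passing. Whether cell makeup has a part in the clock genes was not tested, and fewer cells of a type and less RNA per cell cannot be told apart in whole liver.

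In TFEB-injected livers Arntl, Npas2 and Cry1 were strongly lower, Nr1d2 was higher, and Nr1d1, Cry2 and the Per genes did not pass the test. Clock was slightly lower on the deposited scale. In all, 5 of 10 members passed limma at an adjusted p under 0.05, 1 higher and 4 lower, where 28.1% of all genes passed, 14.2% higher and 13.9% lower. In 6 of 10 members the values of the groups did not overlap, against 46.2% of all genes. Of the 16 probe sets, 7 passed and 9 had separate groups, against 26.0% and 44.6% of all probe sets with 1 symbol. A difference of more than 1 in log2, that is more than doubling or halving, was seen in 3 of 10 members and in 3.98% of all genes. The median difference of the members was -0.15, against -0.05 over all genes.

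**Figure D1:**
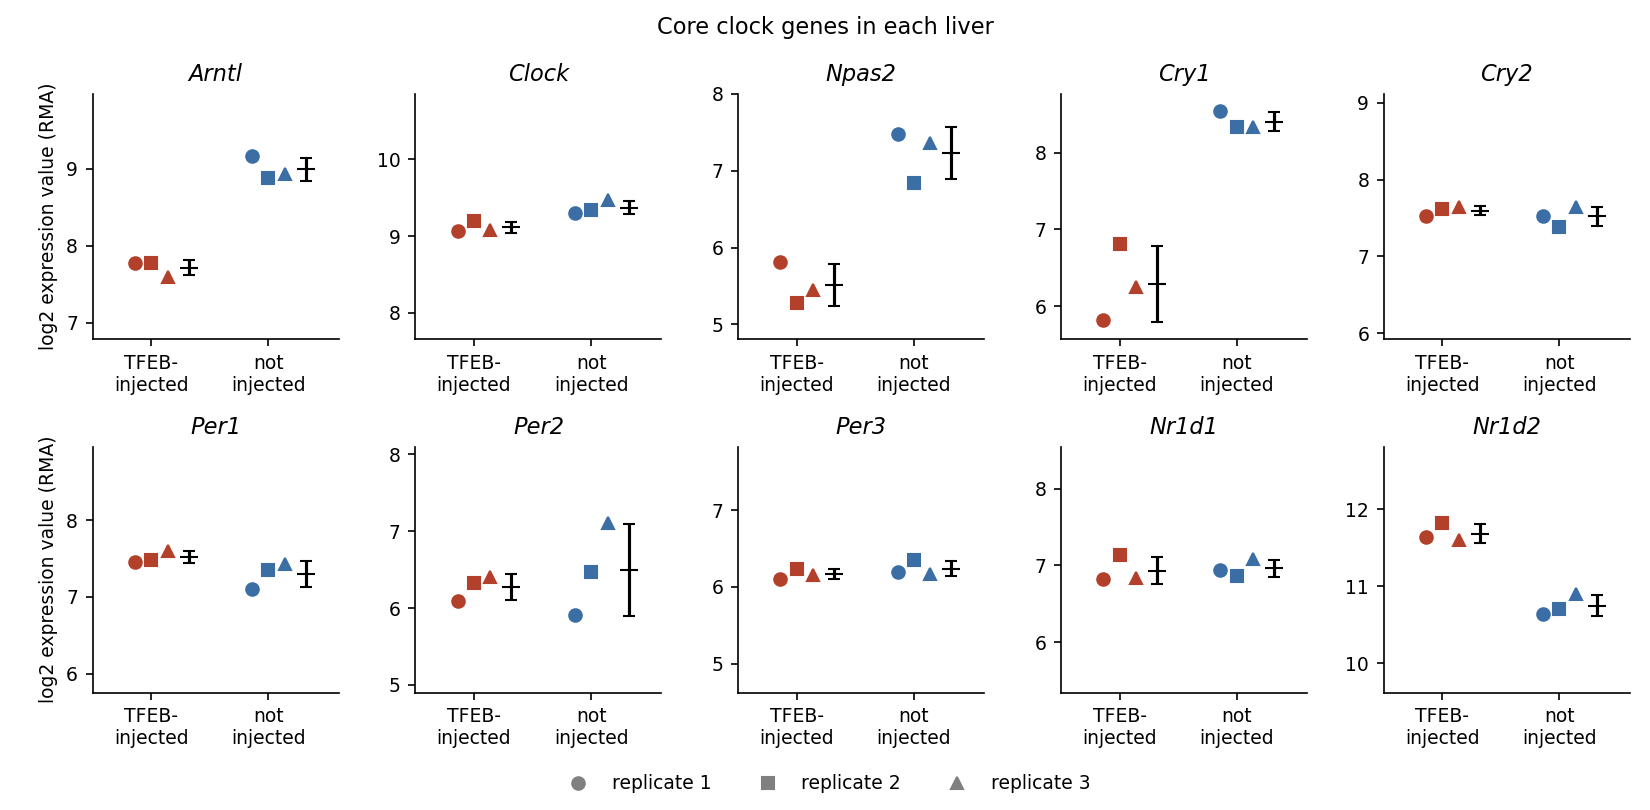
Log2 expression value (vertical axes) of the 10 core clock genes in each liver, TFEB-injected left in red and not injected right in blue. Symbols mark the replicate number and the black bars the mean with its SD (n = 3 each). Arntl, Npas2 and Cry1 lie apart with injected livers lower, Nr1d2 lies apart with injected livers higher, and Per2 spans 5.90 to 7.11 among not-injected livers.

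Among the activators, Arntl encodes the partner that the loop cannot do without. Its only probe set read 7.77, 7.78 and 7.60 in injected livers, against 9.16, 8.88 and 8.93 in not-injected livers. Every injected liver lay more than 1 log2 unit below every not-injected liver. Arntl was 2.42-fold lower (-1.28 ± 0.10 on the log2 scale, SE, limma adjusted p = 0.000216), a difference reached or passed in size by 303 of 12393 genes. Leaving out any of the 6 arrays gave -1.33 to -1.19.

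Npas2 encodes a close relative of CLOCK that can take its place beside ARNTL. It read 5.81, 5.28 and 5.45 in injected livers, against 7.48, 6.85 and 7.36 in not-injected livers, with no overlap. The transcript was 3.29-fold lower (-1.72 ± 0.19, adjusted p = 0.00105). The injected mean of 5.51 lay at about the lower quartile of the arrays (5.46 to 5.56), where RMA values are compressed, so the fold is not exact. The other probe set of Npas2 read 5.05 to 5.18 in injected and 5.17 to 5.38 in not-injected livers, below that quartile on every array, and its difference of -0.19 did not pass (adjusted p = 0.121 over all probe sets).

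Clock itself, which encodes the usual partner of ARNTL, differed far less. Its brighter probe set read 9.07, 9.19 and 9.08 in injected livers, against 9.30, 9.34 and 9.47 in not-injected livers. The difference of -0.26 ± 0.07 passed narrowly (adjusted p = 0.0366) and became 0.18 when arrays were scaled to the spike-ins, -0.21 relative to the median of all genes on that scale. It no longer passed without injected replicate 1 (adjusted p = 0.113), injected replicate 3 (0.104), not-injected replicate 2 (0.0892) or not-injected replicate 3 (0.127). Without variance moderation it did not pass either (adjusted p = 0.0726). The second probe set of Clock read 8.03, 8.10 and 7.76 in injected livers, against 8.63, 8.55 and 8.68 in not-injected livers, and differed by -0.66 ± 0.10 (adjusted p = 0.00316 over all probe sets). Both probe sets of Clock thus had separate groups on the deposited scale, with sizes that disagree.

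The cryptochromes, the strongest repressors of the loop, parted. Cry1 read 5.82, 6.81 and 6.24 in injected livers, against 8.54, 8.33 and 8.33 in not-injected livers. It was 4.31-fold lower (-2.11 ± 0.22, adjusted p = 0.000881), and 99 genes differed by as much or more. The injected livers spread over 0.99 log2 units with replicate 2 highest, while the not-injected livers lay within 0.21. Without injected replicate 2 the difference was -2.37. Cry2 read 7.53, 7.61 and 7.64 in injected livers, against 7.53, 7.39 and 7.64 in not-injected livers. Its groups overlapped, and the difference of 0.07 (95% interval -0.12 to 0.26) did not pass (adjusted p = 0.544). Taken within each array, the change of Cry1 exceeded that of Cry2 by -2.18 ± 0.28 (SE), a measure that adding a constant to an array cannot alter. The groups did not overlap in it, and the two-sided exact permutation p was 0.1, the smallest that 3 livers against 3 allow.

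The period genes gave no clear difference. Per1, which responds quickly to hormones and other signals, read 7.46, 7.48 and 7.60 in injected livers, against 7.10, 7.35 and 7.43 in not-injected livers. Every injected liver was above every not-injected one, yet the gap between the nearest pair was small, and 0.22 ± 0.10 did not pass (adjusted p = 0.133). It passed on the spike-in scale, where it read 0.66 (adjusted p = 0.00272, or 0.0141 with TrpnX counted among the spike-ins), or 0.27 relative to the median of all genes. Per2, which is known to respond to body temperature as well as to the clock, read 6.09, 6.32 and 6.41 in injected livers, against 5.90, 6.47 and 7.11 in not-injected livers. The injected livers lay inside the range of the not-injected ones, and the difference of -0.22 had a 95% interval of -0.85 to 0.41 (adjusted p = 0.573). Its other probe set read 6.03 to 6.13 in injected and 6.18 to 6.34 in not-injected livers, with a difference of -0.17 (adjusted p = 0.123 over all probe sets).

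Per3, a period gene with a lesser part in keeping time, had 3 probe sets that disagree. The brightest read 6.10, 6.23 and 6.15 in injected livers, against 6.20, 6.35 and 6.17 in not-injected livers (-0.08 ± 0.08, adjusted p = 0.487). Another read 6.02, 6.11 and 6.30 in injected livers, against 5.38, 5.68 and 5.86 in not-injected livers, and differed by 0.50 ± 0.13 (adjusted p = 0.0272 over all probe sets). The last read 5.30, 5.55 and 5.15 in injected livers, against 5.55, 5.62 and 5.67 in not-injected livers (-0.28 ± 0.11, adjusted p = 0.0902). No direction can be given for Per3 from these readings. All 3 lay in the lower part of the arrays, at the 34.5, 29.7 and 23.1 percentile of probe sets by mean level.

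The 2 REV-ERB genes also parted. Nr1d2, which encodes REV-ERB beta, read 11.6, 11.8 and 11.6 in injected livers, against 10.6, 10.7 and 10.9 in not-injected livers. It was 1.91-fold higher (0.94 ± 0.10, adjusted p = 0.000743), with no overlap and a range of 0.87 to 1.01 when each array was left out. Its other probe set, at 5.09 to 5.25 in injected and 4.96 to 5.16 in not-injected livers, lay below the lower quartile of the arrays and differed by 0.15 (adjusted p = 0.202 over all probe sets). Nr1d1, which encodes REV-ERB alpha, read 6.83, 7.13 and 6.83 in injected livers, against 6.94, 6.87 and 7.09 in not-injected livers. Its groups overlapped, with a difference of -0.03 and a 95% interval of -0.27 to 0.21 (adjusted p = 0.845). Within arrays the change of Nr1d2 exceeded that of Nr1d1 by 0.97 ± 0.06 (SE), and the groups did not overlap (two-sided exact permutation p = 0.1, the smallest possible). Only 1 probe set reads Nr1d1, and its response to a change of level is not known from these data.

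**Figure D2:**
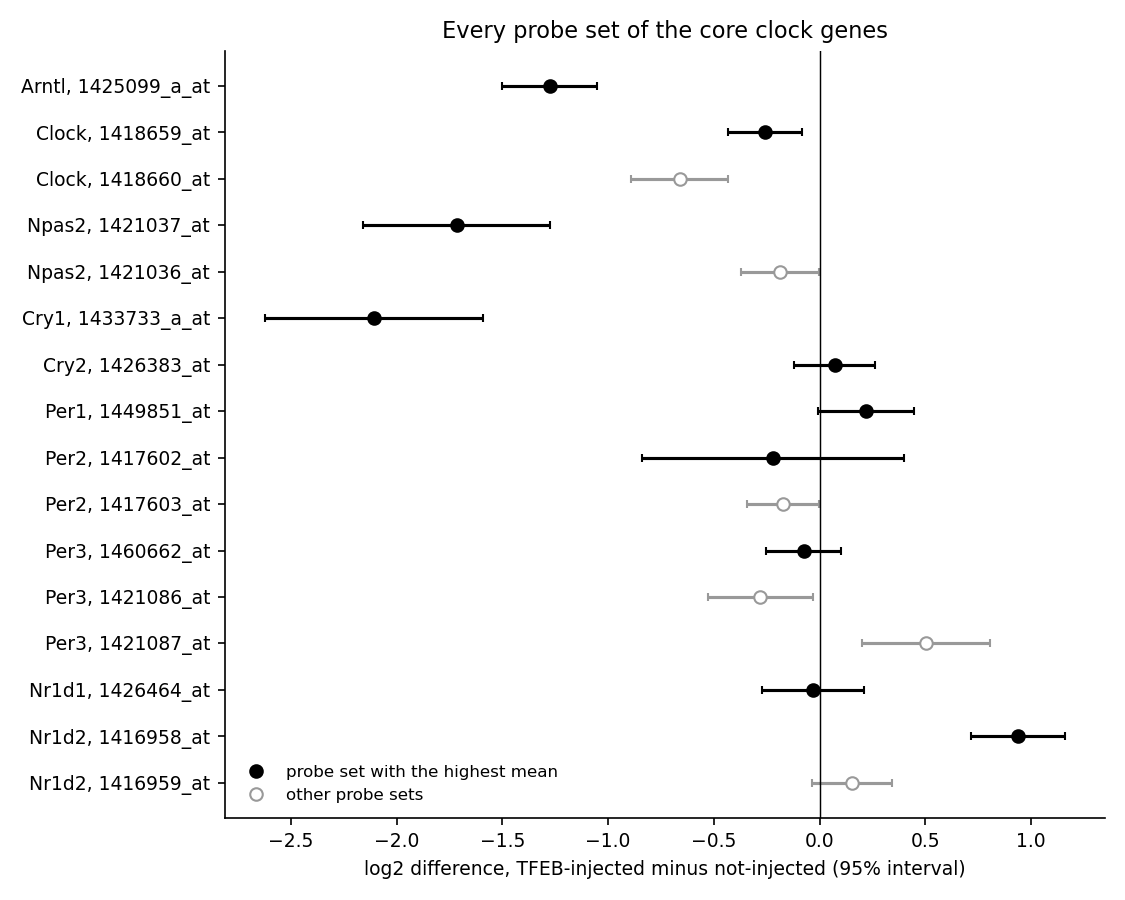
Log2 difference (horizontal axis, TFEB-injected minus not-injected) with its 95% interval for all 16 probe sets of the core clock genes. Filled points are the probe set with the highest mean of each gene and open points the others; the second probe sets of Npas2 and Nr1d2 lie near 0 at -0.19 and 0.15, Clock has -0.26 and -0.66 on the deposited scale (0.18 for the first on the spike-in scale), and the 3 probe sets of Per3 fall on both sides of 0.

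Related genes were set against each other within arrays in 6 pairs, chosen with the results above known. For Npas2 against Clock the change was -1.46 ± 0.27 (SE) with separate groups (exact permutation p = 0.1). Adjusted over the 6 pairs, the p of this pair, of Cry1 against Cry2 and of Nr1d2 against Nr1d1 was 0.2, so none can pass with 3 livers a group. The 3 pairs of period genes overlapped, with changes of 0.44 for Per1 against Per2, 0.29 for Per1 against Per3 and -0.14 for Per2 against Per3 (exact permutation p = 0.3, 0.2 and 0.8).

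Set out in the order of their daily peaks, the lower members lay next to each other around the cycle. The 3 members that peak around the end of the night, Npas2, Arntl and Clock, and the late-night Cry1 were the 4 called lower, at -1.72, -1.28, -0.26 and -2.11 (Clock 0.18 on the spike-in scale). Of the 6 members that peak by day or around dusk, Nr1d2 was called higher and 5 did not pass, at -0.03 for Nr1d1, -0.08 for Per3, 0.22 for Per1, -0.22 for Per2 and 0.07 for Cry2. Nr1d1 and Nr1d2, which peak close together, differed as given above. The order is background from mouse liver, these livers were sampled at a single unstated time, and this description has no test.

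**Figure D3:**
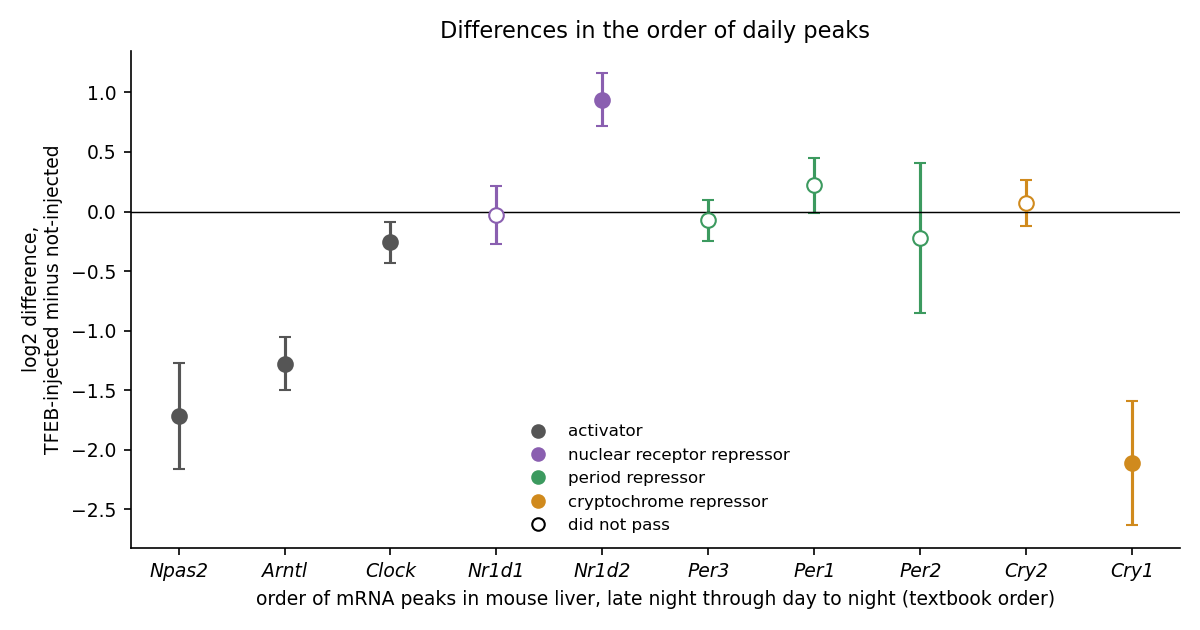
Log2 difference (vertical axis, TFEB-injected minus not-injected, 95% interval) of the core clock genes in the textbook order of their mRNA peaks in mouse liver. Filled points passed limma at an adjusted p under 0.05; the 4 lower ones, Npas2, Arntl, Clock and Cry1, stand at the ends of the axis, which meet in late night (Clock at -0.26 became 0.18 on the spike-in scale).

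Of 18 other clock regulators listed, 14 were measured, and 1 rose, 1 fell and 12 did not pass, where 28.1% of all genes passed. Their median difference was -0.03. Bhlhe40, which encodes the repressor DEC1 that competes for E-boxes, read 10.96, 10.63 and 10.92 in injected livers, against 9.73, 9.95 and 9.85 in not-injected livers. It was 1.99-fold higher (0.99 ± 0.11, adjusted p = 0.000889). Its paralog Bhlhe41 read 5.77, 5.93 and 5.68 in injected livers, against 6.04, 5.94 and 5.93 in not-injected livers, and did not pass (adjusted p = 0.148). Rora, which encodes an activator at the RORE, read 9.70, 9.57 and 9.59 in injected livers, against 10.2, 9.96 and 10.2 in not-injected livers. Rora was lower by -0.52 ± 0.09 (adjusted p = 0.00593), a call lost on the spike-in scale, where it read -0.08. Another probe set of Rora read -0.51 and the dimmest 0.03. The kinases Csnk1d and Csnk1e and the ubiquitin ligase component Btrc, which set how long PER proteins last, read 0.21, 0.03 and 0.06 by their brightest probe sets and did not pass. Of the 5 probe sets of Csnk1d, a dimmer one differed by -0.28 and passed (adjusted p = 0.0350 over all probe sets), so no direction can be given for it.

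Genes driven by the clock changed in both directions. Of 12 listed output genes 10 were measured, and 4 rose, 3 fell and 3 did not pass, with a median of 0.18. Over all genes 14.2% rose and 13.9% fell. Alas1 did not pass by its brightest probe set (0.44, adjusted p = 0.0842). Its other probe set read 0.49 and passed (adjusted p = 0.0469 over all probe sets). Dbp, which encodes a D-box activator turned on through E-boxes, read 9.69, 10.5 and 10.1 in injected livers, against 7.18, 7.88 and 8.57 in not-injected livers. It was 4.67-fold higher (2.22 ± 0.35, adjusted p = 0.00408), and its other probe set read 1.48 (adjusted p = 0.00244 over all probe sets). Without variance moderation Dbp did not pass (adjusted p = 0.0556). Without injected replicate 2 the difference of Dbp was 2.00. Nfil3, which encodes the D-box repressor and is itself repressed by REV-ERB, read 8.32, 8.31 and 8.23 in injected livers, against 10.2, 9.80 and 9.68 in not-injected livers. It was 3.05-fold lower (-1.61 ± 0.13, adjusted p = 0.000304). The RORE core seen in 1 window of Arntl also occurs in that of Nfil3, against 2.61% of all windows. Other genes of the regulator and output lists held an E-box (Bhlhe41, Ciart, Cipc, Coq10b, Sirt1 and Tef), a D-box (Coq10b and Timeless) or CLEAR (Sirt1). Whether these matches have a part in the differences was not tested.

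Nampt, the rate-limiting enzyme of NAD salvage, was 1.94-fold higher (0.96 ± 0.09, adjusted p = 0.000457), and the cell cycle kinase Wee1 1.48-fold higher (0.57 ± 0.10, adjusted p = 0.00613). The second probe set of Nampt read 0.73 and that of Wee1, at a low level, 0.04. The fatty acid elongase Elovl3 read 8.57, 10.8 and 10.1 in injected livers, against 13.3, 13.2 and 13.3 in not-injected livers (adjusted p = 0.00293). Its difference was -3.40, and -3.90 without injected replicate 2. The remaining PAR bZIP genes were less firm. Tef differed by 0.48 (adjusted p = 0.0427) and lost its call without moderation (adjusted p = 0.148), with the mean of its probe sets (0.162), after a second quantile normalisation (0.0706), with array weights (0.0781) and on centred arrays (0.0502). It also lost its call without injected replicate 2 (0.0745), injected replicate 3 (0.104), not-injected replicate 1 (0.104) or not-injected replicate 2 (0.119). Hlf differed by -0.36 (adjusted p = 0.0344), with 0.05 from its second probe set and 0.08 on the spike-in scale. It lost its call without moderation (adjusted p = 0.110), with the mean of its probe sets (0.294), and without injected replicate 1 (0.111), injected replicate 3 (0.102), not-injected replicate 2 (0.118) or not-injected replicate 3 (0.1097).

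**Figure D4:**
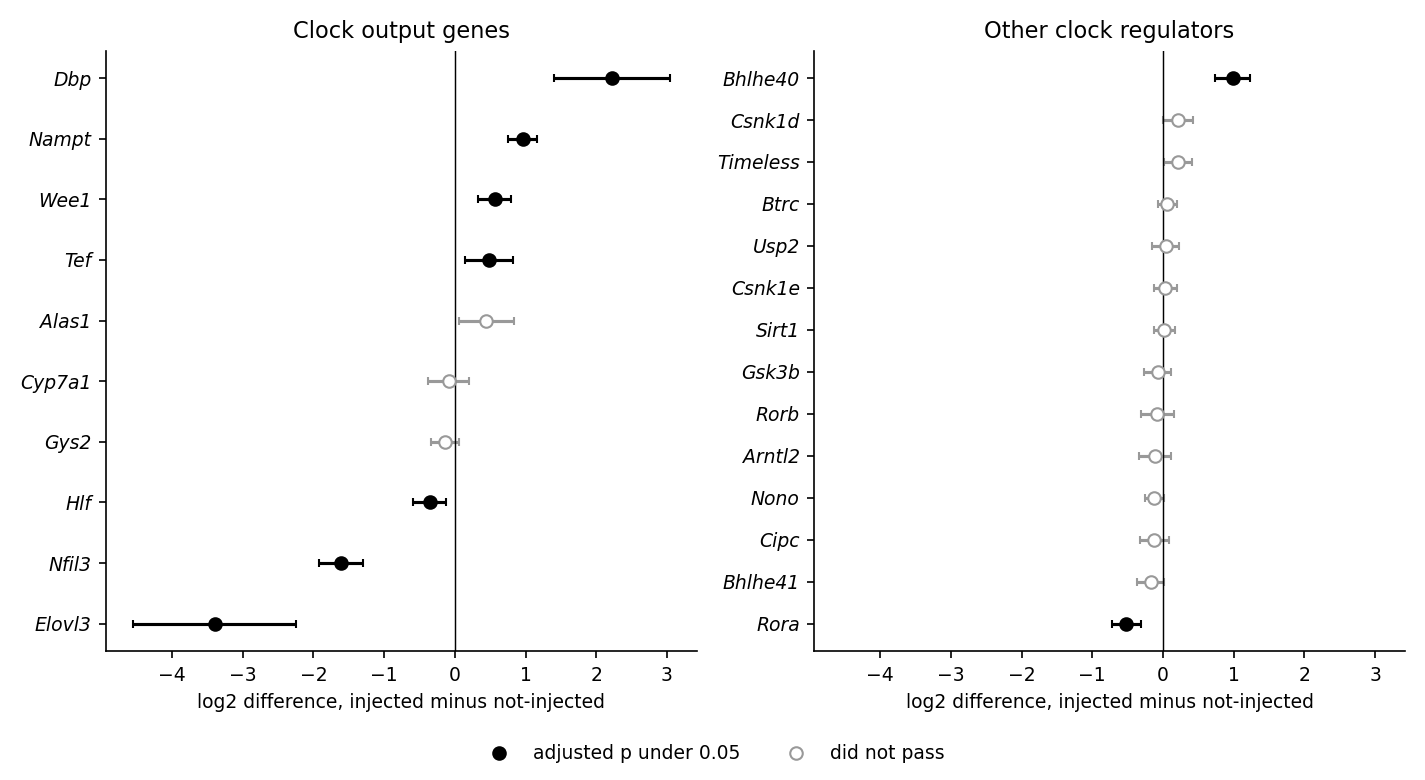
Log2 difference (horizontal axis, TFEB-injected minus not-injected, 95% interval) of 10 clock output genes and 14 other clock regulators. Filled points passed limma at an adjusted p under 0.05; Dbp at 2.22 and Elovl3 at -3.40 bound the outputs, while Bhlhe40 at 0.99 and Rora at -0.52 are the only regulators that passed as deposited (Rora -0.08 and Hlf 0.08 on the spike-in scale).

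Further lists held genes that follow hormones and body temperature, cues known to reset the liver clock. Of 9 genes known to respond to glucocorticoids, 4 rose, 2 fell and 3 did not pass, against 14.2% higher and 13.9% lower over all genes. Their directions were opposed. Zbtb16 was 2.99-fold higher (1.58 ± 0.22, adjusted p = 0.0025, with 0.30 from its other probe set) and Tsc22d3, which encodes the glucocorticoid-induced leucine zipper, 2.52-fold lower (-1.34 ± 0.15, adjusted p = 0.000993). Fkbp5, a sensitive target of the receptor, read 8.76, 8.18 and 8.70 in injected livers, against 8.55, 8.59 and 8.49 in not-injected livers (adjusted p = 0.989). Injected replicates 1 and 3 lay above every not-injected liver, and injected replicate 2, the array farthest from its group, lay below them all. The other probe set of Fkbp5 was lower in injected livers by -0.195 and did not pass (limma adjusted p = 0.0992 over all probe sets). No direction can be given for Fkbp5. Of the other called members, Mt1 (4.49), Mt2 (3.62) and Lcn2 (1.24) were higher and Tat (-1.45) lower. Of 8 measured heat shock and cold-inducible genes, which follow body temperature, 0 passed limma after adjustment, where 28.1% of all genes passed, and 0 had an unadjusted p under 0.05 by their brightest probe sets. A dimmer probe set of Hspa8 differed by -0.77 (unadjusted p = 0.0395 by limma, adjusted p = 0.107 over all probe sets). Of the 9 heat shock and cold-inducible genes listed, 1, a cold-inducible gene, was not measured. Whether hormones or body temperature have a part in the clock differences was not tested.

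Within the not-injected group the clock genes were not uniform. The SD of Per2 was 0.17 over injected livers and 0.60 over not-injected livers, where it was the 11th largest of 12393 genes, and the median SD of all genes was 0.10 in injected and 0.08 in not-injected livers. This spread rests on 1 probe set of Per2. The other, at a similar level, had an SD of 0.056 over injected and 0.092 over not-injected livers, where replicate 2 was lowest at 6.183, against 6.185 in replicate 1. Dbp had an SD of 0.43 over injected and 0.70 over not-injected livers, where it ranked 9th. By the brightest probe sets of both genes, not-injected replicate 1 was lowest and replicate 3 highest, as also in Per1, Nr1d2, Clock and Tef. This placing of the arrays occurred in 4 of 10 core members, 3 of 10 output genes, 2 of 14 other regulators (14.3%) and 16.5% of all genes. It did not hold in the second probe set of Clock, where replicate 2 was lowest (8.55). Replicate 2 was highest in the second probe set of Nr1d2 (5.16) and the dimmest of Tef (5.57). The second probe set of Dbp and another of Tef kept the placing. Npas2 spread by an SD of 0.34, with not-injected replicate 2 lowest. Among injected livers the widest member was Cry1, with an SD of 0.50.

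The genes most alike to Arntl over the 6 arrays, by the root mean square difference of values centred on each gene's mean, were Slco2a1 (0.0639), Hnf4aos (0.1001), Enpp3 (0.108), Bcl7c (0.111) and Cyp4f14 (0.125). All 5 were lower in injected livers, by -1.26 to -1.07. The measure follows mainly the difference between the groups. For Nr1d1, which did not differ between groups by the test, the nearest were Nrcam (0.0236), Uqcc1, Ssbp2, Sgpp1 and Lrrc51 (0.0421). Nrcam read 3.96 to 4.27, below the lower quartile of every array. In Nr1d1 and all 5 of these genes, injected replicate 2 was the highest of the injected livers.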

How the data were processed

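The authors deposited log2 values per probe set of Affymetrix arrays, made with affy and RMA per the submitters' processing notes, which give neither version. RMA normally equalises the distribution of intensities between arrays. Filters are not given in the sources used here. The table held 22690 probe sets, 64 of them controls. Of the others, 20380 had 1 gene symbol in the platform annotation, 691 several and 1555 none, and only the first were named. Of these, 20351 matched RefSeq (GRCm38.p6) by gene identifier, which changed 0 symbols.

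Each gene was represented by its probe set of highest mean level across the 6 arrays. Differences were tested with limma 3.58.1 (R 4.3.3, lmFit and eBayes), two-sided, without covariate or filter, with Benjamini-Hochberg adjustment over 12393 genes, or over 20380 probe sets where a further probe set is given, and called at an adjusted p under 0.05. Intervals are 95%. Single values were tested by exact permutation over 20 assignments. Only the limma step was run on simulated data, with noise independent between genes, and the other steps were not. Named were all members, at most the 6 called genes of smallest p of each further list, the hepatocyte, Kupffer cell and endothelial markers. The 5 genes most alike to Arntl and to Nr1d1 were also named, as were regulator and output genes with a promoter match. Tef, Bhlhe41, Csnk1d, Csnk1e, Btrc, Timeless, Cipc, Fkbp5, Hspa8, Hspa1b, Hsph1, Alas1 and the endothelial markers were named after their values were seen. Members and lists were chosen with earlier results of these data known. The alternatives were another variance moderation or none, averaging a gene's probe sets, testing all of them singly, repeating the quantile normalisation, centring, scaling to the poly-A spike-ins, array weights, a filter on level, a replicate block and leaving out each array. TrpnX control probe sets were counted as spike-ins in a first run and then left out, a choice made after the values were seen; the scale with them was added as an alternative. The small number of arrays limits the precision, and detection calls were not used here. Exact tests used scipy 1.17.1 (Python 3.11.15) and plots matplotlib 3.10.9.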

Additional observations from a re-analysis of the deposited data

How the results depend on the processing

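Arntl, Npas2, Cry1 and Nr1d2 kept direction and call in every alternative that held their gene value, and only the second, dim probe sets of Npas2 and Nr1d2 did not pass. The count of called members was 5, with 4 to 5 when each array was left out and 4 without variance moderation, where Clock lost its call. It was 8 on the spike-in scale and 3 of 3 when genes under the median level were left out. The count over all genes was 3486, with 1973 to 4378 when each array was left out. It was 4378 without injected replicate 2, 2103 without injected replicate 1, and 1973 and 2032 without not-injected replicates 2 and 3. It was 1881 without variance moderation and 8354 on the spike-in scale, of which 8130 were higher, against 1765 higher as deposited. On that scale, which adds to every gene alike, Clock read 0.18, Nr1d1 0.40, Per2 0.22, Per3 0.36 and Hlf 0.081, all opposite in sign to the deposited scale. Nr1d1, Per3, Cry2 (0.51) and Per1 (0.66) passed there, and Clock did not. The 24 spike-in probe sets were settled after seeing the data. With the 3 TrpnX probe sets counted among them, 3508 genes and 5 members were called, of the genes 3369 higher. Clock then read 0.17, Nr1d1 0.397, Per2 0.208, Per3 0.353 and Hlf 0.0734, again opposite in sign, and of the members not called as deposited only Per1 passed (Cry2 adjusted p = 0.0663, Nr1d1 0.139, Per3 0.180). Without single arrays Nr1d1 ran from -0.13 to 0.031 and Per2 from -0.51 to 0.087. With the mean of probe sets Per3 read 0.049. Among members and called genes of the further lists, single probe sets of opposite sign read 0.50 for Per3, 0.052 for Hlf, -0.052 for Tef, 0.026 for Rora and -0.13 for Mt1. Among genes of those lists that did not pass, they read -0.279 for Csnk1d, which passed, and -0.115 for Btrc, -0.190 for Timeless, 0.0502 and 0.0542 for Cipc, -0.195 for Fkbp5 and -0.774 for Hspa8, which did not; the cause was not tested. The labels' replicate numbers were shared by the groups, but same-numbered arrays deviated together with correlations of 0.14, 0.06 and 0.01, so they were not taken as pairs. With the replicate block 3348 genes and 4 members were called, and Clock (-0.26, adjusted p = 0.0579) lost its call. The number of arrays and compressed low values limit the readings of Npas2 and Per3.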

Other observations

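Of the 8 measured heat shock and cold-inducible genes, 5 had not-injected replicate 1 lowest and replicate 3 highest, against 16.5% of all genes. The same placing was seen in Dbp and in the brighter of the 2 probe sets of Per2, but not in the other. This was looked at after the values of Per2 were seen. Genes read on the same 3 arrays do not count as independent. Hspa1b, an inducible heat shock protein, read 9.63, 10.5 and 10.5 in injected livers, against 10.1, 11.4 and 11.5 in not-injected livers, and ranked 6th of 12393 genes by SD among not-injected livers (0.78). Hsph1, a partner of HSP70, read 9.25, 9.45 and 9.65 in injected livers, against 9.45, 10.02 and 10.33 in not-injected livers. The 0 calls of this list are those of limma on the brightest probe set of each gene, where the smallest unadjusted p was 0.0561, for Hsph1.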
